A study of Oryza sativa with 11 samples.

Results

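The 8 rice loci described here are the jasmonate receptor gene COI1b (LOC_Os05g37690), the activator gene MYC2 (LOC_Os10g42430) and 6 genes of the jasmonate and defence response: JAmyb (LOC_Os11g45740), WRKY45 (LOC_Os05g25770), CPS2 (LOC_Os02g36210), KSL7 (LOC_Os02g36140), JIOsPR10 (LOC_Os03g18850) and PBZ1 (LOC_Os12g36880). They were chosen by locus ID for their roles, with earlier results of these data known. They are 8 of 55986 loci in the deposited table. RNA of whole anthers was sequenced from untreated rice (Oryza sativa) grown in the field, in 11 libraries. Anthers of the wild type (WT) and of ostie1-1, a mutant of OsTIE1, were each sampled at anther stages 10 and 12. There were 3 libraries of WT at stage 10, 3 of ostie1-1 at stage 10, 3 of WT at stage 12 and 2 of ostie1-1 at stage 12. OsTIE1 encodes a transcriptional repressor, which the series ties to jasmonate synthesis, male sterility and anther opening. The lesion carried by ostie1-1 is not given in the sources used here, and OsTIE1 itself was not analysed here.

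Jasmonate is a lipid-derived hormone that plants make after wounding or attack and during stamen maturation, where it is needed for anthers to open and shed pollen. The active form, a conjugate of jasmonate with isoleucine, joins the F-box protein COI1 to a JAZ repressor, which is then degraded. This frees MYC2, a basic helix-loop-helix transcription factor, to switch on response genes, among them other transcription factors, enzymes of antimicrobial diterpenoids (phytoalexins) and pathogenesis-related proteins. WT anthers of stage 10 hold vacuolated microspores, and those of stage 12 hold pollen close to maturity.

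Levels are given as FPKM, a fragment count divided by transcript length and library size, which can be compared between genes because they are per length. The libraries were of similar depth, 0.914 to 1.17 relative to WT stage 10 replicate 1. Of 12 loci listed as tapetum and pollen markers, 11 reached the test, with summed levels of 2410 to 14342 FPKM per library. The remaining anther marker, LOC_Os08g38810, stood at 0 to 0.0537 FPKM. At stage 10 most of each sum came from LOC_Os11g37280 (5220 to 13211 FPKM). Others stood low, such as LOC_Os09g27620 at 0.874 to 2.66 FPKM over the 11 libraries. Of the 2 pistil markers, LOC_Os03g11600 was at 0 throughout and LOC_Os12g10540 reached 0.146 FPKM in a single library. WT stage 10 replicate 3 stood apart. Across 21279 loci its correlation with the other 2 libraries of its group was 0.79 and 0.80, lower than with ostie1-1 at stage 10 (0.88 to 0.90), while those 2 reached 0.98 with each other. Its 6 photosynthesis markers, 1 of which was at 0 in every library, summed to 1424 FPKM, against 85.4 and 71.3 in WT stage 10 replicates 1 and 2, 19.3 to 30.0 in ostie1-1 at stage 10, 113 to 147 in WT at stage 12 and 8.72 and 46.0 in ostie1-1 at stage 12. Some anther markers set this library apart too. LOC_Os03g07140 measured 55.8 FPKM in it, 12.5 and 15.5 in replicates 1 and 2, and 48.9 to 65.1 in ostie1-1 at stage 10. For LOC_Os02g02820 these values were 471, 122 and 134, and 286 to 397. For LOC_Os03g07250 they were 40.7, 0.698 and 1.43, and 2.59 to 33.4. Lower there than in replicates 1 and 2 were LOC_Os01g38670 (256 against 450 and 579) and LOC_Os10g17660 (38.9 against 135 and 49.4). The library was kept as labelled, and results that rest on it are given with and without it. The part of green tissue in those results was not tested.

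COI1b, which encodes the receptor subunit, measured 8.45, 6.57 and 40.4 FPKM in WT replicates 1 to 3 at stage 10, and 39.0, 41.8 and 31.0 FPKM in ostie1-1. At stage 12 it measured 16.1, 15.5 and 16.4 FPKM in WT and 18.4 and 21.7 FPKM in ostie1-1. WT stage 10 replicate 3 thus lay among the mutant libraries, while the WT libraries of stage 12 were nearly equal. By group mean the order was ostie1-1 at stage 10 (37.3 ± 5.58 FPKM, SD, n = 3), ostie1-1 at stage 12 (20.1 ± 2.36, n = 2), WT at stage 10 (18.5 ± 19.0, n = 3) and WT at stage 12 (16.0 ± 0.464, n = 3), and only the first stood clear of its neighbour. Fewer cells that express a gene and less RNA per cell cannot be told apart in whole anthers.

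MYC2 measured 11.3, 9.09 and 21.7 FPKM in WT and 39.1, 30.2 and 25.0 FPKM in ostie1-1 at stage 10. The stage 12 values were 16.9, 12.6 and 14.2 FPKM in WT and 36.5 and 33.3 FPKM in ostie1-1. Every mutant library was above every WT library of its stage, although at stage 10 the groups overlapped once the libraries had been scaled. The group means were 34.9 ± 2.23 FPKM (n = 2) in ostie1-1 at stage 12 and 31.4 ± 7.11 (n = 3) in ostie1-1 at stage 10, followed by 14.5 ± 2.16 (n = 3) in WT at stage 12 and 14.0 ± 6.74 (n = 3) in WT at stage 10. The gap lay between the genotypes, and within each genotype the stages overlapped. Among all tested loci, MYC2 was above 63.1% and 63.4% in WT at stages 10 and 12 and above 83.1% and 83.3% in ostie1-1.

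JAmyb, a jasmonate-induced MYB transcription factor gene, measured 0.637, 0.512 and 3.18 FPKM in WT and 5.01, 8.46 and 8.66 FPKM in ostie1-1 at stage 10. JAmyb at stage 12 measured 1.12, 1.27 and 3.53 FPKM in WT and 21.9 and 18.6 FPKM in ostie1-1. The genotypes did not overlap at either stage, and the mutant stages did not overlap with each other. The ratio of mean FPKM, ostie1-1 to WT, was 5.11 at stage 10 and 10.3 at stage 12. The values of this gene over the 11 libraries stood in whole-number ratios, and the fewest reads that give these ratios are 22, 18 and 127 in WT at stage 10 and 882 and 705 in ostie1-1 at stage 12.

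WRKY45, a transcription factor gene known in rice for salicylate-type disease resistance, was lower. It measured 0.266, 0.104 and 0.805 FPKM in WT and 0.776, 1.96 and 0.738 FPKM in ostie1-1 at stage 10, and the groups overlapped. Stage 12 values were 0.687, 0.523 and 0.796 FPKM in WT and 6.01 and 1.11 FPKM in ostie1-1. Both mutant libraries were above WT, but replicate 1 was 5.40 times replicate 2.

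CPS2 encodes the cyclase that makes ent-copalyl diphosphate for the phytocassane class of phytoalexins. It measured 0.0268, 0 and 0.0463 FPKM in WT and 0.0808, 0.152 and 0.799 FPKM in ostie1-1 at stage 10. The fewest reads that fit these low values are 2, 0 and 4 in WT and 6, 12 and 56 in ostie1-1. The level in WT at stage 10 may thus rest on a handful of reads. At stage 12 it measured 1.50, 0.468 and 1.11 FPKM in WT and 7.75 and 2.88 FPKM in ostie1-1. The 2 highest libraries of the 11 were those of ostie1-1 at stage 12, and the only overlap between groups was that of ostie1-1 at stage 10 with WT at stage 12.

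KSL7 encodes the synthase that acts on the CPS2 product and is listed with 4 transcript models. It was listed at 0 in 9 libraries and at 0.125 and 0.0566 FPKM in ostie1-1 stage 10 replicates 2 and 3, with all of it from 1 model, and it was not tested. Loci with several models reached the test in 19.5% of cases (1256 of 6457) against 40.4% of loci with 1 model (20023 of 49529), so a value near 0 is not read as absence of the transcript.

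Besides CPS2 and KSL7, 16 loci were listed for diterpenoid phytoalexin synthesis and its control. None reached an FPKM of 1 in any library and none was tested. Their highest value was 0.462 FPKM (LOC_Os02g36070), 5 were at 0 throughout, and 5 had several models. Summed over the 16 loci, the level was 0.273, 0.204 and 0.495 FPKM in WT and 0.558, 0.788 and 0.774 FPKM in the mutant at stage 10. The sum at stage 12 was 0.585, 0.557 and 0.406 FPKM in WT and 1.20 and 0.885 FPKM in the mutant. The sum was thus higher in the mutant libraries than in the WT libraries of each stage, as CPS2 was. Of all tested loci, 10.9% at stage 10 and 25.8% at stage 12 had groups apart in that direction on scaled values. Such shares hold for single tested loci such as CPS2, and not for a sum of untested loci on unscaled FPKM. CPS2 alone exceeded the sum at stage 12 in all libraries but WT replicate 2.

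**Figure D1:**
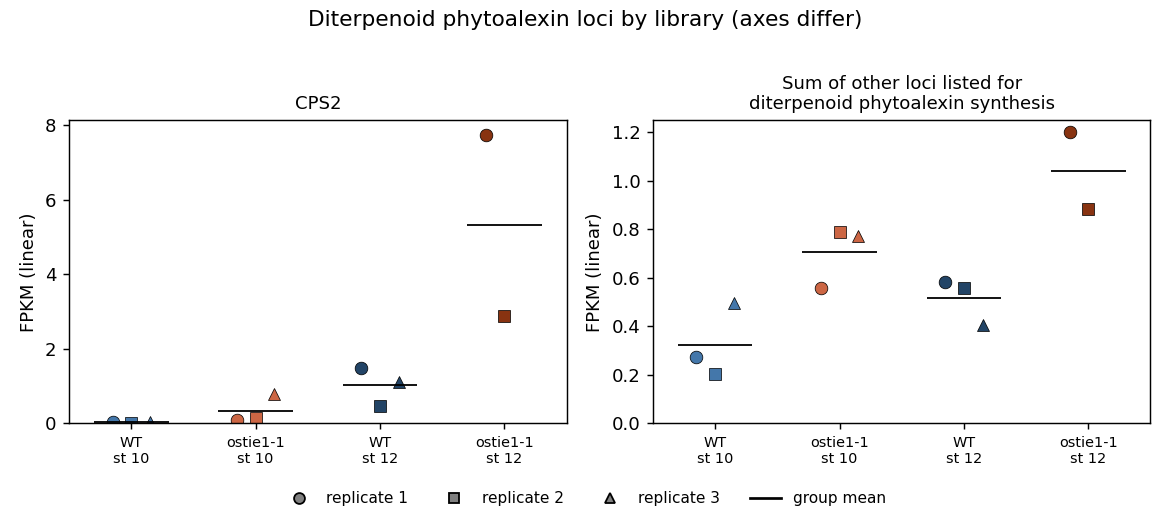
FPKM of CPS2 (left) and the FPKM sum of 16 other loci listed for diterpenoid phytoalexin synthesis (right) in each library, on linear axes of different range. Points are libraries, with a symbol per replicate number, and lines are group means. CPS2 reached 7.75 and 2.88 FPKM in ostie1-1 at stage 12, while the sum of the 16 loci did not exceed 1.20 FPKM.

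JIOsPR10 and PBZ1 encode small PR10 defence proteins, induced in rice by jasmonate and by the compound probenazole respectively. JIOsPR10 measured 0.461, 0.0906 and 2.55 FPKM in WT and 0.974, 1.74 and 1.38 FPKM in ostie1-1 at stage 10, and 4.96, 0.403 and 0.644 FPKM in WT and 1.34 and 1.34 FPKM in ostie1-1 at stage 12. A single WT library was the highest at each stage, replicate 3 at stage 10 and replicate 1 at stage 12, and the genotypes overlapped at both.

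PBZ1 measured 0.247, 0.486 and 4.85 FPKM in WT and 0.580, 2.10 and 2.02 FPKM in ostie1-1 at stage 10. The WT libraries of stage 12 measured 1.06, 0.270 and 0.411 FPKM, and those of ostie1-1 measured 6.35 and 1.43 FPKM. The mutant libraries lay above WT at stage 12, with replicate 1 at 4.45 times replicate 2, and overlapped with WT at stage 10. The fewest reads that fit the PBZ1 values at stage 12 are 12, 3 and 5 in WT and 90 and 19 in ostie1-1.

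**Figure D2:**
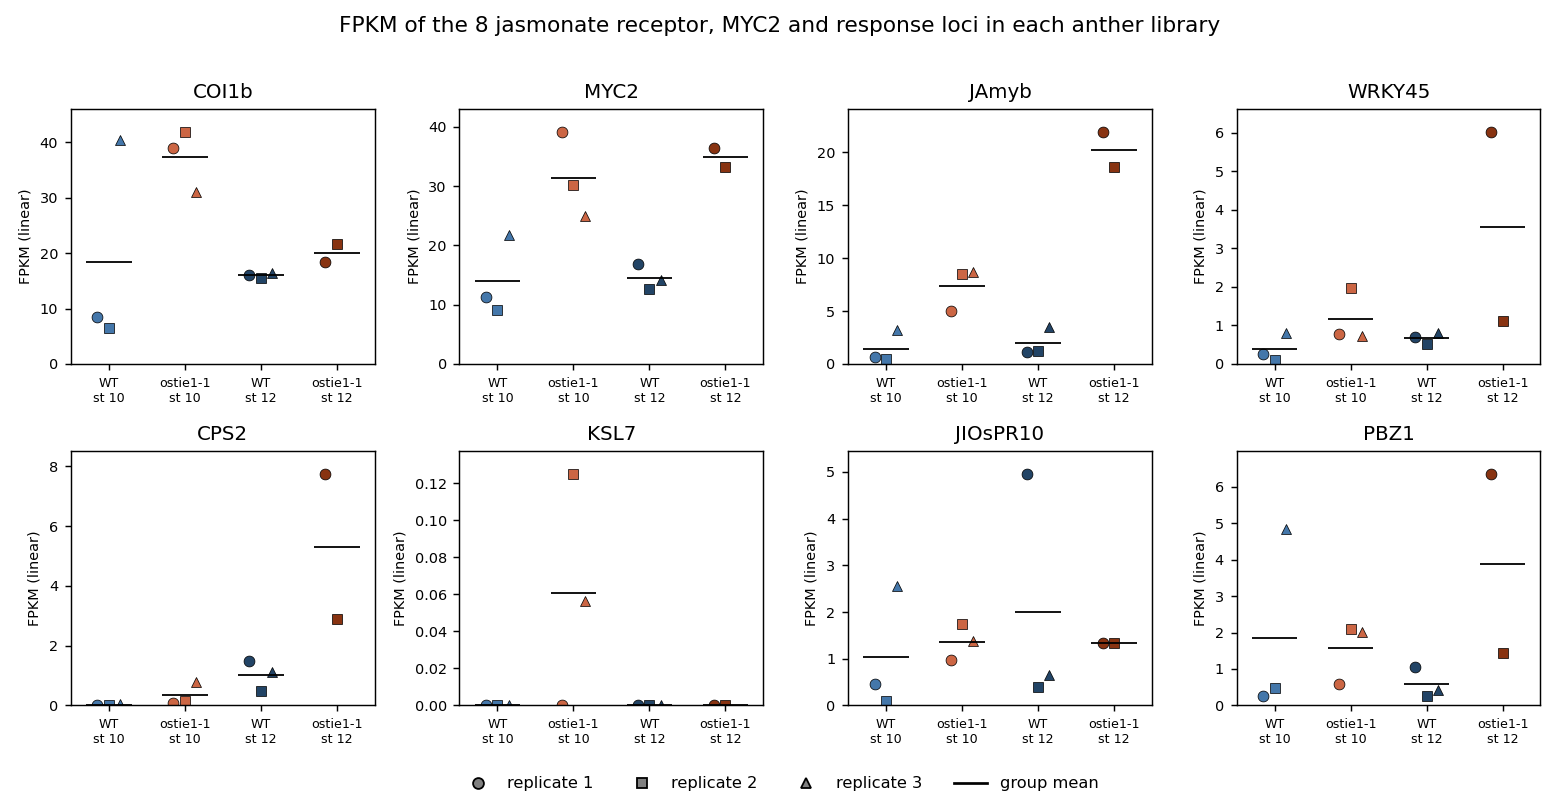
FPKM (linear axes, a range of its own for each locus) of the 8 loci in the 11 libraries, by genotype and anther stage (st). Symbols mark the replicate number and lines the group mean. MYC2 and JAmyb lay higher in both mutant groups than in WT, COI1b in WT stage 10 replicate 3 (40.4 FPKM) lay with the mutant, and KSL7 did not exceed 0.125 FPKM.

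The genotypes were compared at stage 12, when pollen is close to maturity. JAmyb and CPS2 rose in ostie1-1. For JAmyb the difference was 3.16 log2 units (SE 0.57, adjusted p = 0.0123) and for CPS2 1.76 (SE 0.35, adjusted p = 0.0211), on the scale of log2(scaled FPKM + 1), which understates the change of a gene as low as CPS2 (ratio of mean FPKM 5.19). MYC2 (1.55, SE 0.50, adjusted p = 0.122), PBZ1 (1.61, SE 0.72, adjusted p = 0.245) and WRKY45 (1.36, SE 0.47, adjusted p = 0.148) did not pass. Without ostie1-1 stage 12 replicate 1 the estimate was 0.54 for WRKY45 and 0.86 for PBZ1, and without replicate 2 it was 2.21 and 2.38. COI1b stood at 0.64 (95% interval -0.95 to 2.24) and JIOsPR10 at 0.18 (-1.18 to 1.54), and neither passed. Of the 7 loci that reached the test, 2 rose and 0 fell, whereas over all 21279 loci 3.53% passed, 3.23% as rises and 0.301% as falls. The groups did not overlap, with ostie1-1 higher, for 6 of the 7 and with ostie1-1 lower for 0, against 25.8% and 20.4% of all loci in this comparison of 2 with 3 libraries. The median of the 7 was 1.55 and that of all loci 0.05. As the members were chosen with earlier results of these data known, such shares describe them and do not test them. WRKY45, 1 of the 6, had reached the test through mutant libraries alone, with an FPKM of 1 or more in 3 of them and in 0 of the WT libraries, so its place in these counts depends on its level in the mutant. The other 6 would have reached it on WT libraries alone. The test was limma with Benjamini-Hochberg adjustment over all loci and a threshold of 0.05.

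These 2 calls did not withstand the loss of every library. JAmyb no longer passed when WT replicate 2 of stage 12 (adjusted p = 0.0574) or ostie1-1 replicate 1 (0.0763) or 2 (0.0878) of that stage was left out, with a log2 fold change between 2.92 and 3.54 whichever of the 11 libraries was left out. CPS2 no longer passed without replicate 2 (adjusted p = 0.0880) or 3 (0.0505) of WT or replicate 1 of ostie1-1 (0.124) at that stage, with estimates of 1.57, 1.84 and 1.24. With a pseudocount of 0.1 neither passed, with JAmyb at 3.81 (adjusted p = 0.0548) and CPS2 at 2.55 (0.120), and with TPM CPS2 did not (1.59, adjusted p = 0.0695). The fit shares its variance over all groups, and without WT stage 10 replicate 3, which is in neither group compared, MYC2 (adjusted p = 0.00823) and PBZ1 (0.0315) also passed, so that 4 of the 7 loci were higher, against 10.9% of all loci. MYC2 also passed with only the stage 12 libraries fitted (1.49, SE 0.27, adjusted p = 0.0216), where 1772 loci passed against 751 in the main fit. These were the only 2 of 17 alternatives in which MYC2 passed at this stage.

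At stage 10 none of the 7 loci passed in limma, and 3 had an unadjusted p below 0.05, as had 18.8% of all loci. These were JAmyb (log2 fold change 1.97, SE 0.51, adjusted p = 0.0687), MYC2 (1.32, SE 0.44, adjusted p = 0.152) and COI1b (1.54, SE 0.65, adjusted p = 0.236). WRKY45 had 0.64 (95% interval -0.28 to 1.56), JIOsPR10 0.39 (-0.82 to 1.61), CPS2 0.36 (-0.33 to 1.05) and PBZ1 0.13 (-1.28 to 1.53). All 7 estimates were positive, although for PBZ1 the ratio of mean FPKM, ostie1-1 to WT, was 0.844. The median of the 7 was 0.64 against -0.01 over all loci, of which 2.91% passed, 2.35% as rises and 0.555% as falls. JAmyb and CPS2 had groups that did not overlap, with ostie1-1 higher, and no tested member had it lower, against 10.9% and 8.36% of all loci. The limma adjusted p of JAmyb was 0.0465 with unscaled FPKM and 0.0495 with TPM. It was 0.0517 with a replicate block, 0.0842 with a pseudocount of 0.1, 0.141 without the filter and 0.194 with only the stage 10 libraries. JAmyb passed in 3 of 17 alternatives at this stage.

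In WT at stage 10, replicate 3 was above replicates 1 and 2 in 7 of the 7 loci, as it was in 46.8% of all loci tested. Its log2 level exceeded the mean of the other 2 by 2.95 for COI1b, 2.54 for PBZ1, 1.88 for JIOsPR10, 1.85 for JAmyb, 1.69 for MYC2, 0.86 for WRKY45 and 0.07 for CPS2. Without it COI1b (log2 fold change 2.54, SE 0.27, adjusted p = 3.6e-04), JAmyb (2.61, SE 0.36, adjusted p = 9.8e-04) and MYC2 (1.89, SE 0.29, adjusted p = 0.00149) were higher in ostie1-1, 3 of 7 loci against 18.8% of all loci. JIOsPR10 then had 1.04 (SE 0.46, adjusted p = 0.107), PBZ1 0.99 (SE 0.43, adjusted p = 0.103) and WRKY45 0.95 (SE 0.43, adjusted p = 0.115). With replicate 1 or replicate 2 left out instead, none of the 7 passed in limma. The estimates were then 1.11 and 0.97 for COI1b, 1.67 and 1.63 for JAmyb and 1.09 and 0.97 for MYC2 (adjusted p 0.265 to 0.651). Photosynthesis markers and some anther markers were high in replicate 3, as given above.

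**Figure D3:**
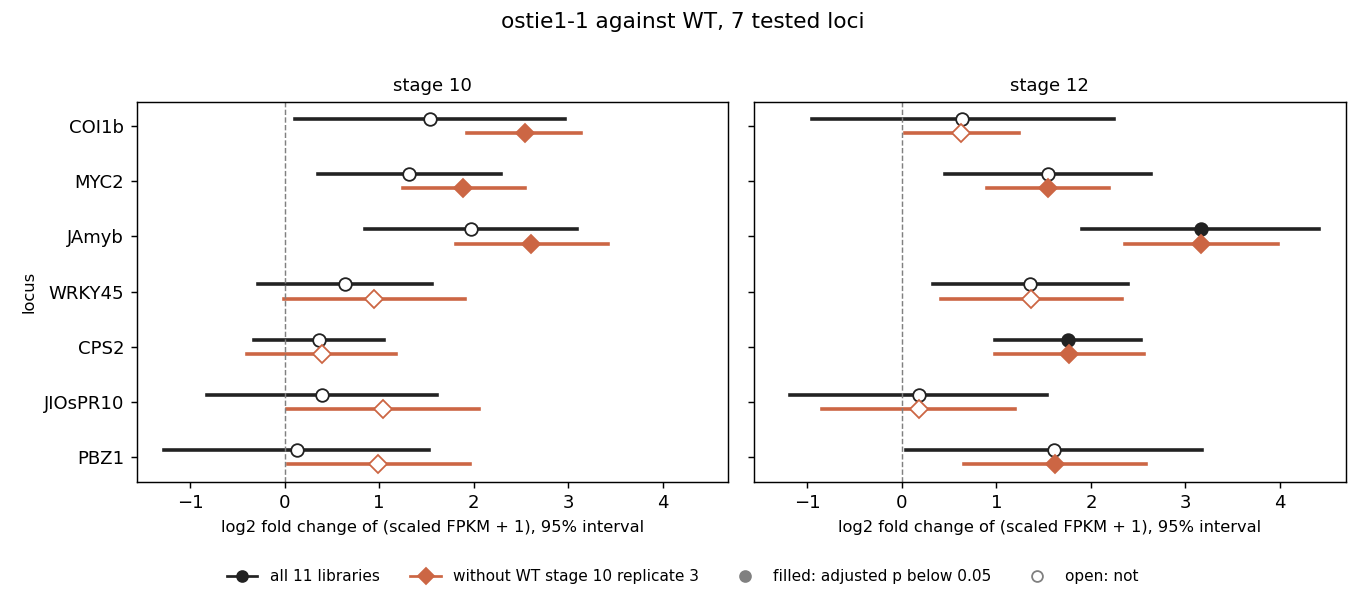
Log2 fold change of ostie1-1 against WT on the log2(scaled FPKM + 1) scale at stage 10 (left) and stage 12 (right) for the 7 tested loci. Bars are 95% intervals, filled symbols passed at an adjusted p below 0.05, circles use all 11 libraries and diamonds leave out WT stage 10 replicate 3. JAmyb and CPS2 passed at stage 12 in both fits, and COI1b, MYC2 and JAmyb passed at stage 10 without that library.

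Whether the genotype difference changed between the stages was tested as an interaction. None of the 7 loci passed in limma, against 0.0188% of all loci, and 1 of the 7 had an unadjusted p below 0.05, against 5.43% of all loci. That locus was CPS2, with an estimate of 1.40 for stage 12 minus stage 10 (SE 0.47, adjusted p = 0.565), or 0.88 without ostie1-1 stage 12 replicate 1. Its order depended on the scale, since the ratio of mean FPKM was 14.1 at stage 10, over a WT level near 0, and 5.19 at stage 12. For JAmyb the estimate was 1.19 (95% interval -0.49 to 2.87), for MYC2 0.23 (-1.23 to 1.69) and for COI1b -0.90 (-3.04 to 1.24). Without WT stage 10 replicate 3 the COI1b estimate was -1.90 (SE 0.38, adjusted p = 0.0969), that of JAmyb 0.55 (SE 0.52, adjusted p = 0.667) and that of CPS2 1.38 (SE 0.50, adjusted p = 0.247). Without WT stage 10 replicate 2 the COI1b estimate was -0.33.

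From stage 10 to stage 12, CPS2 rose in ostie1-1 by 2.23 log2 units (SE 0.35, adjusted p = 0.00289), from a mean of 0.344 ± 0.396 FPKM (n = 3) to 5.31 ± 3.44 FPKM (n = 2). It passed under each of the 17 alternatives (adjusted p 0.00211 to 0.0397). The other 6 tested loci did not pass. JAmyb had 1.36 (SE 0.57, adjusted p = 0.168), with both libraries of stage 12 above all of stage 10, and COI1b had -0.89 (SE 0.73, adjusted p = 0.500), with both below. Of all loci 10.7% passed, 7.78% as rises and 2.94% as falls. The stages did not overlap in 3 of the 7 members, CPS2 and JAmyb (higher) and COI1b (lower), against 23.6% of all loci higher and 22.0% lower. Without WT stage 10 replicate 3, which enters here through the shared variance, JAmyb (1.35, SE 0.36, adjusted p = 0.0246) and COI1b (-0.90, SE 0.27, adjusted p = 0.0372) also passed. In that fit 22.8% of all loci passed, 13.3% as rises. JAmyb also passed with only the ostie1-1 libraries fitted (1.37, SE 0.30, adjusted p = 0.0303), where 2640 loci passed against 2281 in the main fit. The comparison shares the ostie1-1 stage 12 libraries with the genotype comparison at that stage. CPS2 had reached the test through stage 12 libraries alone, as its highest stage 10 value was 0.799 FPKM. Its place in the counts of this step thus depends on its level at stage 12. Without the filter on low values its estimate was 2.23 (SE 0.35, limma adjusted p = 0.00687).

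In WT, where the same step covers normal anther maturation, none of the 7 loci passed in limma, against 2.62% of all loci, 2.11% as rises and 0.512% as falls. At an unadjusted p below 0.05 there was 1 of the 7, a share like the 14.1% of all loci. That locus, CPS2, had reached the test through stage 12 libraries alone. CPS2 stood at 0.83 (SE 0.31, adjusted p = 0.247), from 0.0243 ± 0.0232 to 1.02 ± 0.520 FPKM (n = 3 each), with all 3 libraries of stage 12 above all of stage 10, as in 10.9% of all loci, while 11.3% lay apart in the other direction and no tested member did. The fewest reads that fit are 2, 0 and 4 at stage 10 and 104, 32 and 83 at stage 12. The FPKM ratio of CPS2, 42.1, thus has a value near 0 in the denominator. The remaining estimates lay between -0.69 (PBZ1, SE 0.64) and 0.20 (JIOsPR10, SE 0.55), with COI1b at 0.01, MYC2 at -0.09, JAmyb at 0.16 and WRKY45 at 0.15. Of these, MYC2 was positive with unscaled FPKM (0.13) and TPM (0.10). Without WT stage 10 replicate 3, COI1b had 1.00 (SE 0.27, adjusted p = 0.0936), since the other WT libraries of stage 10 were below those of stage 12.

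**Figure D4:**
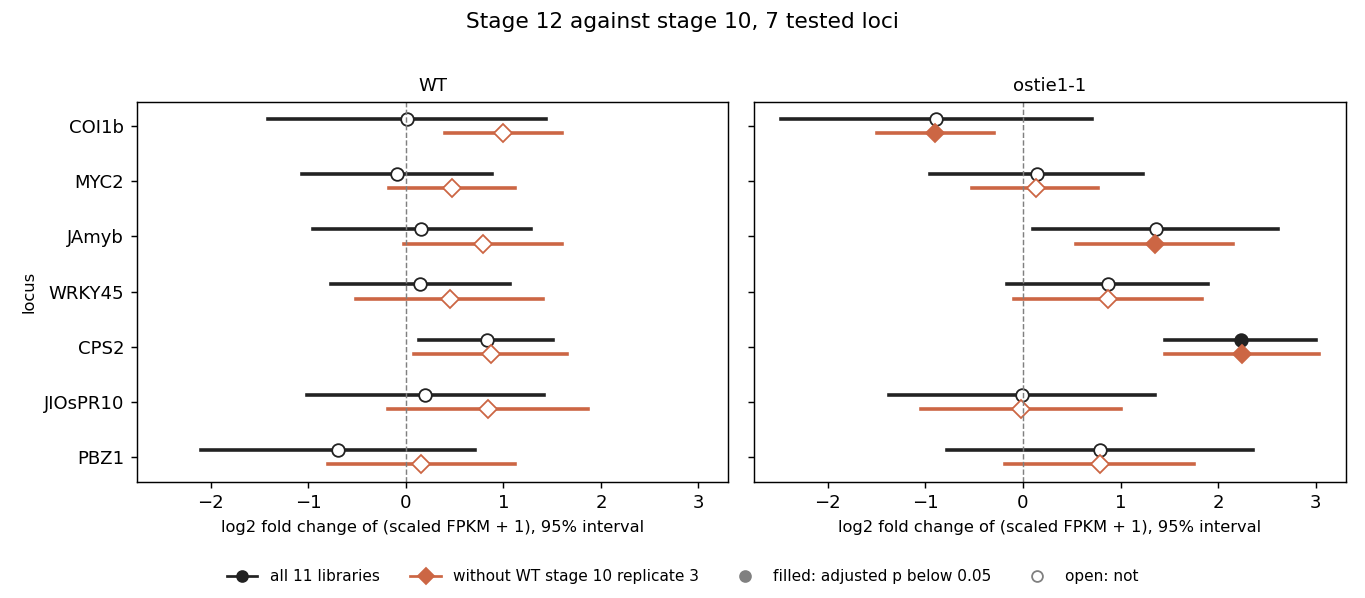
Log2 fold change of stage 12 against stage 10 on the log2(scaled FPKM + 1) scale in WT (left) and ostie1-1 (right) for the 7 tested loci, with 95% intervals. Filled symbols passed at an adjusted p below 0.05, circles use all 11 libraries and diamonds leave out WT stage 10 replicate 3. CPS2 passed in ostie1-1 in both fits, and no locus passed in WT.

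Other genes of the pathway were taken from lists. Of 25 loci listed for jasmonate signalling (receptor homologues, JAZ repressors, co-repressors and partners of MYC2), 7 were at 0 in every library. With these, 9 stayed below an FPKM of 1 throughout, and 12 of the 25 had several models. The test was reached by 15. At stage 10, 1 rose in ostie1-1 and 14 did not pass, with a median log2 fold change of 0.60, against 2.35% of all loci that rose and a median of -0.01. The locus that rose, LOC_Os09g26780, measured 9.91, 10.1 and 16.1 FPKM in WT and 33.6, 66.0 and 67.4 FPKM in the mutant (2.23, SE 0.44, adjusted p = 0.0241). At stage 12, 3 rose and 12 did not pass, with a median of 0.59, against 3.23% of all loci that rose and a median of 0.05. They were LOC_Os03g08330 (2.94, SE 0.61, adjusted p = 0.0256), LOC_Os10g25250 (1.94, SE 0.44, adjusted p = 0.0370) and LOC_Os09g26780 (2.12, SE 0.50, adjusted p = 0.0419). None fell at either stage. Without WT stage 10 replicate 3, 7 of the 15 were higher at stage 10 and 5 at stage 12, against 18.8% and 10.9% of all loci in that fit. The estimate of MYC2 was above the list median at both stages, and that of COI1b at both as well.

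Of 8 loci listed as WRKY factors and regulators of salicylate-type defence, 3 were tested and none passed in limma at either stage. At an unadjusted p below 0.05 there were 0 at stage 10 and 1 at stage 12. The medians were 0.83 and 1.41. The smallest adjusted p belonged to LOC_Os01g09800 at stage 10 (1.71, SE 0.78, adjusted p = 0.269), which measured 5.20, 4.23 and 41.0 FPKM in WT and 43.4, 34.8 and 22.0 FPKM in ostie1-1. In this locus, as in COI1b, WT replicate 3 lay with the mutant. At stage 12 it belonged to LOC_Os01g54600 (1.41, SE 0.62, adjusted p = 0.240). Of 6 loci listed for PR10 and other pathogenesis-related proteins, 3 were tested and none passed (0 at an unadjusted p below 0.05 at both stages), with medians of 0.58 and 1.08. LOC_Os06g51050 had the smallest adjusted p at stage 10 (0.58, SE 0.60, adjusted p = 0.616) and at stage 12 (1.16, SE 0.67, adjusted p = 0.353). Without WT stage 10 replicate 3, 3 of the 3 WRKY and salicylate loci and 2 of the 3 pathogenesis-related loci were higher at stage 10. At stage 12 the numbers were 2 and 0. That fit called 18.8% of all loci higher at stage 10 and 10.9% at stage 12.

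The members did not share a single pattern over the 11 libraries. Profiles were compared by the root mean square difference of log2 levels after each locus mean had been removed. COI1b and MYC2 were nearest to each other among the 7 loci (0.50), JAmyb was nearest to MYC2 (0.76), WRKY45 and PBZ1 to each other (0.59), CPS2 to WRKY45 (0.66) and JIOsPR10 to PBZ1 (0.72). Between 145 (JAmyb) and 4807 (JIOsPR10) of 21272 other loci lay nearer to each of them than that. The closest locus outside the 8 was LOC_Os11g25860 for COI1b (0.21), LOC_Os03g57770 for MYC2 (0.16), LOC_Os04g28250 for JAmyb (0.36) and LOC_Os12g37600 for WRKY45 (0.22). For CPS2 it was LOC_Os03g24310 (0.17), for JIOsPR10 LOC_Os11g26760 (0.29) and for PBZ1 LOC_Os09g30490 (0.30). LOC_Os03g57770 had means of 2.16 and 1.81 FPKM in WT at stages 10 and 12 and 4.91 and 5.24 FPKM in ostie1-1. LOC_Os04g28250 had 0.537 and 0.825 FPKM in WT and 4.80 and 9.34 FPKM in ostie1-1.

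**Figure D5:**
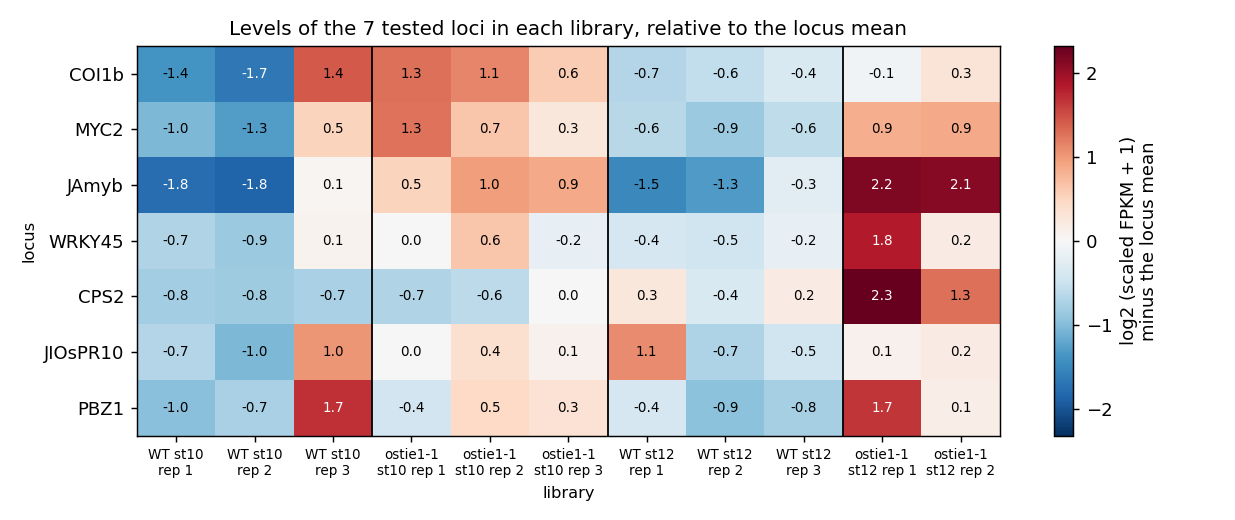
Log2(scaled FPKM + 1) of the 7 tested loci in each of the 11 libraries, minus the mean of the locus (red higher, blue lower). COI1b and MYC2 were below their means in every WT library but stage 10 replicate 3. COI1b was also slightly below its mean in ostie1-1 stage 12 replicate 1. JAmyb was lowest in 4 WT libraries, with WT stage 10 replicate 3 and WT stage 12 replicate 3 close to its mean. WRKY45 was highest in ostie1-1 replicate 1 at stage 12 (6.01 FPKM), and PBZ1 was high there and in WT stage 10 replicate 3.

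Agreement between libraries of a group also differed among the members. Between the 2 ostie1-1 libraries of stage 12 the log2 levels differed by 0.03 for MYC2, 0.07 for JAmyb, 0.09 for JIOsPR10 and 0.38 for COI1b, against a median of 0.50 over all loci. The differences were 1.65 for WRKY45, 1.51 for PBZ1 and 1.06 for CPS2, with replicate 1 the higher, and 5.93%, 7.90% and 18.8% of all loci differed by more. MYC2 and JAmyb in the mutant at stage 12 were thus measured with close agreement, and WRKY45 and PBZ1 with little. In WT at stage 12 JIOsPR10 spanned 1.82 (2.34% of loci spanned more) and JAmyb 1.22 (9.54%), while COI1b spanned 0.32, MYC2 0.28 and WRKY45 0.27. In WT at stage 10 COI1b spanned 3.09 (4.28% of loci spanned more) and PBZ1 2.66 (7.11%), in both cases with replicate 3 the highest.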

How the data were processed

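The deposited values are FPKM computed by the authors for each MSU transcript model. Per the submitters' processing notes, HISAT2 2.2.0, featureCounts and the IRGSP-1.0 build were used; how counts became FPKM and how shared reads were treated is not given in the sources used here. FPKM of 66338 models were summed to 55986 loci. Absolute depth is unknown. Below an FPKM of 0.3 values stand in whole-number ratios, which gave relative depths, and with these the values of each tested member fell within 0.05 of whole numbers of reads, given as the fewest that fit.

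Libraries were divided by median-of-ratios factors (0.734 to 1.33). Loci that reached an FPKM of 1 in 2 or more libraries (21279) were tested on log2(scaled FPKM + 1) with limma 3.58.1 (R 4.3.3, trended variance), with 1 mean per group over all 11 libraries, Benjamini-Hochberg adjustment over all of them and a threshold of 0.05; the procedure was tested on simulated data. The replicates are numbered in the labels and called biological, with no word on separate plants, so a p-value covers only sample-to-sample spread, which may be technical. Group overlap in counts was judged on scaled values.

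Members and lists were chosen with earlier results of these data known. Member names come with the locus IDs. A RefSeq table of another assembly (ASM3414082v1) holds 5 of the 8 names, each on the chromosome that its ID gives, and other list loci were assigned from general knowledge and are given by ID. All 8 members are named. For each tested member the closest profile outside the 8 is named, and from each list up to 3 loci that passed with the smallest adjusted p, or the 1 with the smallest. Alternatives were other scalings, a pseudocount of 0.1, no filter on low values, a replicate block, fits of only the compared groups, and each library left out. No sequence was available for the members. Same-numbered libraries did not deviate together (1 of 10 pairs over 0.1), so no block was used.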

Additional observations from a re-analysis of the deposited data

How the results depend on the processing

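Of 585 member values under alternatives, 532 kept direction and side of the threshold. The members called at stage 10 (0) numbered 1 with unscaled FPKM and 1 with TPM, and 0 to 3 with 1 library left out. At stage 12 (2) they numbered 1 with TPM, 0 with a pseudocount of 0.1, and 0 to 4 with 1 library left out. For the step in ostie1-1 (1) they numbered 2 with only the compared groups and 1 to 3 with 1 library left out. In WT and for the interaction they stayed at 0. The cause was not tested. Leaving out an ostie1-1 stage 12 library leaves 1, which is assumed to vary like the other groups.

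Signs turned only in values that did not pass. JIOsPR10 at stage 12 (0.18) was -0.03 unscaled and -0.07 with TPM, and in the step in ostie1-1 (-0.01) 0.11 with the replicate block and 0.00 with only those groups. MYC2 in the WT step (-0.09) was 0.13 unscaled and 0.10 with TPM. With 1 library left out the ranges that cross 0 were, at stage 10, JIOsPR10 -0.01 to 1.04 and PBZ1 -0.36 to 0.99; at stage 12, JIOsPR10 -0.17 to 0.73; in the WT step, COI1b -0.55 to 1.00, MYC2 -0.44 to 0.47, JAmyb -0.21 to 0.79, WRKY45 -0.03 to 0.45, JIOsPR10 -0.36 to 0.84 and PBZ1 -1.17 to 0.16; in the ostie1-1 step, MYC2 -0.10 to 0.40 and JIOsPR10 -0.09 to 0.09; and in the interaction, MYC2 -0.35 to 0.58, WRKY45 -0.11 to 1.55 and JIOsPR10 -0.86 to 0.35.

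With the replicate block the members called were 0 at stage 10, 2 at stage 12, 1 in the ostie1-1 step and 0 in the other comparisons. Correlations of same-numbered deviations were -0.47 to 0.12. No pairing by number was thus seen, though groups of 2 or 3 libraries cannot settle this. Over all loci the block gave 331 calls at stage 10 in place of 619.

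Counts over all loci moved with 1 library left out from 157 to 7118 at stage 10 (619 with all), from 212 to 3488 at stage 12 (751), from 3 to 598 in the WT step (557), from 613 to 4808 in the ostie1-1 step (2281) and from 0 to 18 for the interaction (4). At stage 12 they were 499 with TPM, 284 with a pseudocount of 0.1, 1164 without the filter and 1772 with only those groups. Stage 10 gave 111 with only those groups, and the WT step 62 without the filter and 319 with only those groups. The interaction gave 7 unscaled, 0 with TPM, with a pseudocount of 0.1 or with the block, and 196 without the filter. The median of all loci moved from -0.01 to -0.13 unscaled and -0.20 with TPM at stage 10, and from 0.05 to -0.21 and -0.30 at stage 12. WRKY45 and CPS2 have no value at stage 10 with only those groups, since they then fall below the filter. WRKY45, CPS2, JIOsPR10 and PBZ1 may rest on few reads in WT at stage 10. The fewest that fit in replicates 1 to 3 are 10, 4 and 35 for WRKY45 and 2, 0 and 4 for CPS2. They are 10, 2 and 64 for JIOsPR10 and 3, 6 and 68 for PBZ1.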
